A study of Mus musculus with 21 samples.

Results

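Bdnf, Ntf3, Ntrk2, Ntrk3, Ngfr and Sort1 were followed in nascent RNA of mouse cortical cultures whose network activity was raised. They are 6 of the 24984 genes in the deposited table, taken by their symbols, and they encode 2 neurotrophins and 4 receptors. All 6 passed the filter on low counts that left 16959 genes for testing, and none overlapped another gene of the table.

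The cultures came from cortex of CD1 mice of mixed sex and were used at day 17 in vitro. A preincubation of 30 min in DMSO (the solvent) came first in some groups, and in the others it was in 25 µM MM401, a peptidomimetic that blocks binding of the histone methyltransferase MLL1 (gene Kmt2a) to WDR5. Bicuculline at 40 µM, which blocks GABA-A receptors, or water was then given for 1 h or 4 h. All groups received 2 mM bromouridine during the last 30 min, so that RNA made in that window could be isolated and sequenced (BrU-seq). The 7 groups were DMSO with water at 4 h, DMSO with bicuculline at 1 h and at 4 h, MM401 with water at 1 h and at 4 h, and MM401 with bicuculline at 1 h and at 4 h. Each group had 3 biological replicates. Replicate 3 of MM401 with water at 4 h was left out because its total was very low, which left 2 libraries in that group and 20 in all. DMSO cultures given water for 1 h are not analysed here, so for 1 h of bicuculline in DMSO the time in culture medium and the drug differ together.

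Brain-derived neurotrophic factor (BDNF) is a secreted protein that neurons make in response to synaptic activity, and it acts mainly through the receptor tyrosine kinase TrkB, the product of Ntrk2. Neurotrophin-3, the product of Ntf3, acts mainly through TrkC, the product of Ntrk3. The low-affinity receptor of all neurotrophins is the product of Ngfr, and sortilin, the product of Sort1, is a sorting receptor that binds the precursor forms and joins with the Ngfr product. Bdnf has several alternative first exons, each with its own promoter, all spliced to 1 shared coding exon, and the promoter before exon IV is the one best studied for its response to calcium and CREB.

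Totals of the 20 libraries ran from 49886348 to 87939384 counts (median 62996146), and each detected 18840 to 19277 genes. The library left out held 316741 counts, 0.503% of that median, and detected 12538 genes. Replicates of a group differed by more than sampling noise in each of the 19 pairs (chi-square per degree of freedom 6.14 to 78.5). Markers of excitatory neurons summed to between 489 and 1050 CPM (counts scaled to a common library total, with edgeR's TMM factors) in a library, of inhibitory neurons to between 327 and 689, and of astrocytes to between 414 and 847. The 4 endothelial markers summed to at most 3.46 CPM, and Cldn5 was at 0 in all libraries of 3 groups. The summed level of the 5 excitatory markers was higher in every bicuculline library (676 or more) than in every water library (625 or less), and so was that of the 5 inhibitory markers (495 or more against 384 or less). In the 4 comparisons of bicuculline with water 3 to 4 of the 5 excitatory markers were called higher and 0 to 1 lower, and 2 to 4 of the 5 inhibitory markers higher and 0 lower. Of all genes, 18.1% to 23.7% were called higher and 21.7% to 25.5% lower in these comparisons. The 5 astrocyte markers summed to 717 to 823 CPM (DMSO) and 777 to 847 CPM (MM401) at 1 h of bicuculline, above all water libraries (696 or less), and to 569 to 656 CPM at 4 h, within the range of water. Slc1a3 made up most of that sum (mean 423 CPM), and the astrocyte markers did not move together: at 1 h in DMSO 2 of 5 were called higher and 1 lower, with a median log2 fold change of -0.053 (Aldh1l1 0.99, Slc1a3 0.59, Gfap -0.053, Gja1 -0.22 and Aqp4 -0.39). Under MM401 3 of 5 were called higher and 0 lower at 1 h and also at 4 h, and in DMSO at 4 h 0 were called. Markers of the oligodendrocyte lineage also summed higher in every bicuculline library (162.3 CPM or more) than in every water library (158.9 or less). At 4 h under MM401 microglial markers summed to 31.87 to 36.1 CPM, above all water libraries (30.64 or less). In the other bicuculline groups the microglial sums overlapped with water. The part of these sums in the values of the members was not tested. In bulk samples fewer cells of a type and less RNA per cell cannot be told apart.

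Promoter windows are given for Bdnf and Ntrk2, the genes that rose with bicuculline, to show which activity-response letters their starts hold. Windows run from 250 bases before to 50 bases after a RefSeq start, on build GRCm38.p6, the assembly of the mm10 coordinates in the table. RefSeq windows were found for 4 of the 6 genes: 7 for Bdnf, 2 for Ntf3, 1 for Ntrk2 and 1 for Ngfr. All 3 windows shown lie on the plus strand, and capitals mark TGACG, the core of a cAMP response element, and TCGTG, the core recognised by NPAS4 with its ARNT partners, on either strand (CGTCA and CACGA on the other).
Bdnf start 1, chr2:109674450-109674749: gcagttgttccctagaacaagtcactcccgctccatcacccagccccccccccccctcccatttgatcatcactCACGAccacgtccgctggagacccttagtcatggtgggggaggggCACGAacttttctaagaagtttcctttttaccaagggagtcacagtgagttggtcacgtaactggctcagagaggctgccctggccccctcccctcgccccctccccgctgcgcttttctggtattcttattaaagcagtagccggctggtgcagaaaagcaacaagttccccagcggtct
Bdnf start 3, chr2:109692186-109692485: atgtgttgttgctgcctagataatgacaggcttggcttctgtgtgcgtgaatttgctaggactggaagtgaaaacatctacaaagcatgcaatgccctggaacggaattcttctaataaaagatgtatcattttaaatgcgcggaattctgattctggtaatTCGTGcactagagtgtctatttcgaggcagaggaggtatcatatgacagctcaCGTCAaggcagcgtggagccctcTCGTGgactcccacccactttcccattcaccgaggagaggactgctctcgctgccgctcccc
Ntrk2 start, chr13:58806319-58806618: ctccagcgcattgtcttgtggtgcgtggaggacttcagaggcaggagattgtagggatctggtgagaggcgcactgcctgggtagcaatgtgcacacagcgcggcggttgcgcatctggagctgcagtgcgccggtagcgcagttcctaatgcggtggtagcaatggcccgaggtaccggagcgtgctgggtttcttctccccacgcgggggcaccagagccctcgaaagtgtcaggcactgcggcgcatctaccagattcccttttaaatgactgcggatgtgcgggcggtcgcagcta

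The window of Bdnf start 3, that of exon IV in the usual numbering, was the only one of the 7 with TGACG, once, and it held TCGTG at 2 places. TCGTG was found in 3 of the 7 Bdnf windows. Over all 32851 RefSeq promoter windows of 300 bases, 20.8% held TGACG and 16.0% held TCGTG. The full palindrome TGACGTCA (1.79% of all windows) was in none of the member windows. The AP-1 site TGANTCA (7.81%) was in 1 Bdnf window and the E-box CACGTG (7.15%) in 1 Ntf3 window. The Ntrk2 and Ngfr windows held none of these 5 motifs. A match is a description of letters and not a bound site. Counts were taken over whole genes, so the contributions of the single Bdnf promoters could not be separated.

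Calls rest on edgeR's quasi-likelihood test, with p-values adjusted by Benjamini-Hochberg across the 16959 genes and a threshold of 0.05. Bdnf and Ntrk2 were called higher in each of the 4 comparisons of bicuculline with water, and no other member was called higher in any of them. In DMSO that was 2 of 6 members at 1 h, where 44.6% of all genes were called (20% higher), and 2 of 6 at 4 h, where 49.2% were (23.7% higher). Under MM401 it was 2 of 6 at 1 h (39.9% of all genes, 18.1% higher). At 4 h under MM401 it was 3 of 6 with Ngfr, which was lower (44.6% of all genes, 23.0% higher and 21.7% lower). These shares of members lay within or not far above the background, so the counts alone say nothing particular about the members.

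**Figure D1:**
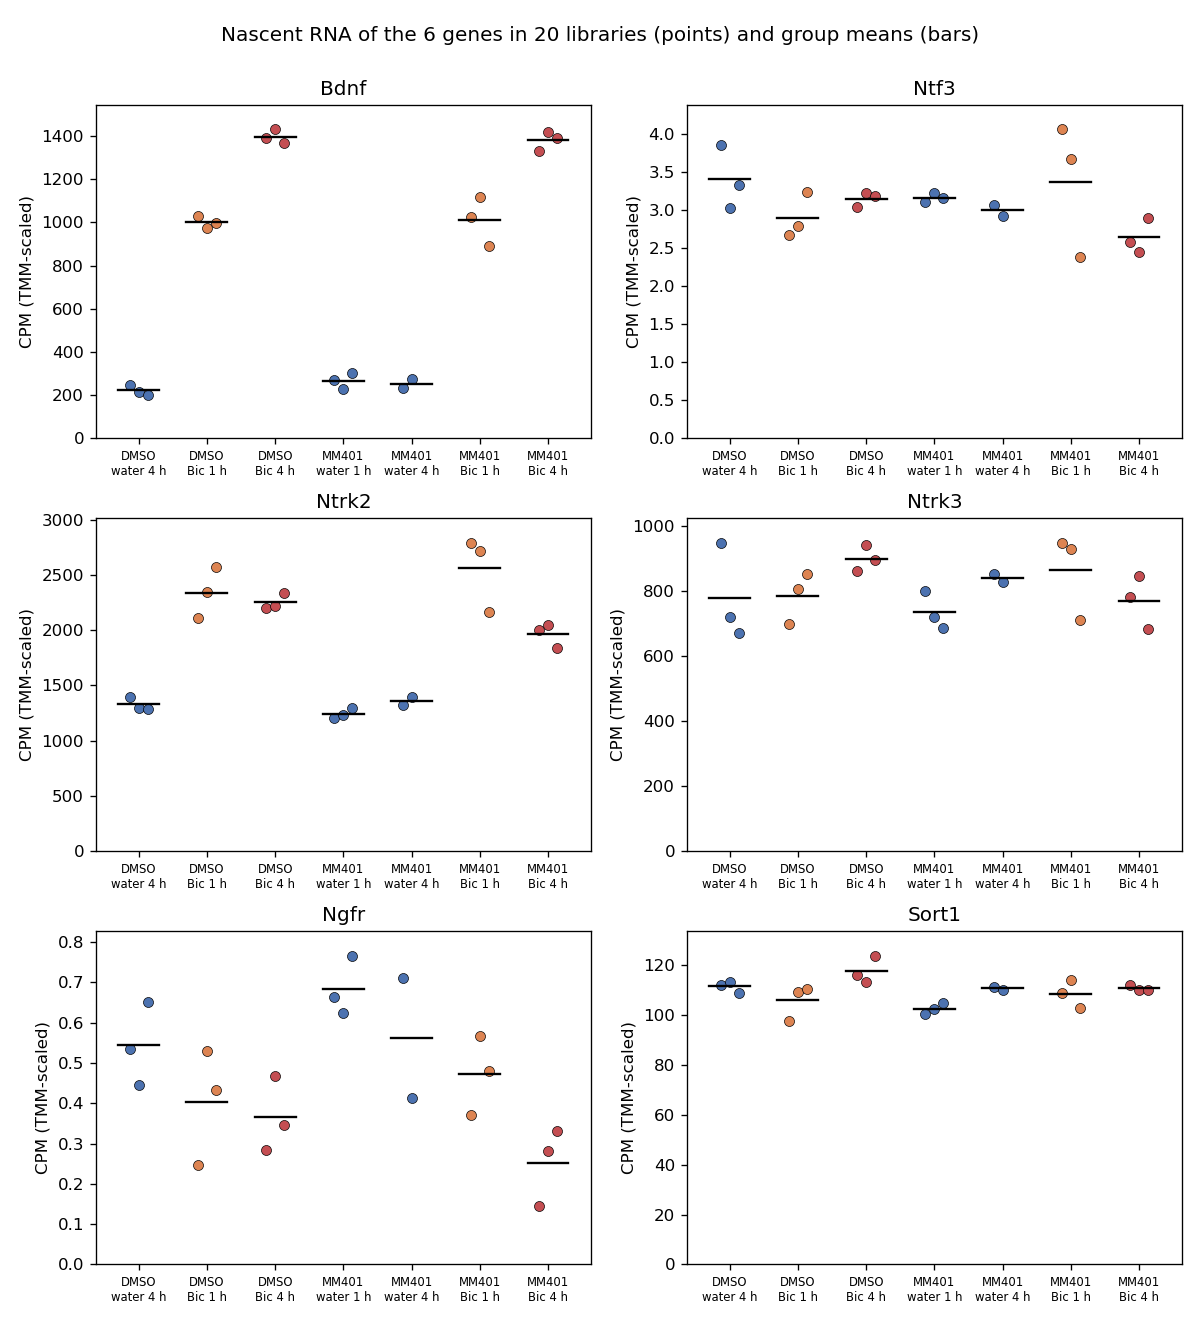
TMM-scaled CPM (linear axes from 0) of the 6 genes in each of the 20 libraries (points; blue water, orange bicuculline 1 h, red bicuculline 4 h), with group means as black bars; the spread within a group is that of its 2 or 3 points. Bdnf sat between 200.4 and 301 CPM in water and between 892 and 1431 CPM in bicuculline, and Ntrk2 between 1208 and 1398 against 1841 to 2792 CPM.

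Bdnf (chromosome 2, 109674699 to 109727043, plus strand, 52345 bases) was the member that responded most to bicuculline. In DMSO with water at 4 h its 3 libraries gave 247, 214 and 200.4 CPM. After 1 h of bicuculline they gave 1030, 974 and 997 CPM, and after 4 h 1390, 1431 and 1367 CPM. All libraries of each bicuculline group lay above all water libraries, and the 4 h libraries lay above the 1 h libraries. Group means were 221 ± 23.9, 1000 ± 27.8 and 1396 ± 32.3 CPM (SD, n = 3 each), and a library held 13338 to 110669 Bdnf counts.

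Under MM401 the levels of Bdnf were close to those in DMSO. Water at 1 h gave 269, 228 and 301 CPM, and water at 4 h gave 231 and 273 CPM. Bicuculline gave 1026, 1116 and 892 CPM at 1 h and 1332, 1420 and 1393 CPM at 4 h. As in DMSO, the libraries in water, at 1 h and at 4 h of bicuculline did not overlap.

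The log2 fold change of Bdnf in DMSO was 2.18 ± 0.10 at 1 h (SE; 4.54-fold; edgeR adjusted p = 2.93e-13) and 2.66 ± 0.11 at 4 h (6.33-fold; 2.08e-14). It ranked at place 84 and place 40 from the top among 16959 genes. Under MM401 it was 1.93 ± 0.10 at 1 h (3.81-fold; 2.07e-12, place 92) and 2.45 ± 0.12 at 4 h (5.48-fold; 2.94e-12, place 58). At 4 h of bicuculline Bdnf was higher than at 1 h by a log2 value of 0.48 ± 0.10 in DMSO (edgeR adjusted p = 0.000575) and by 0.45 ± 0.10 under MM401 (0.00116).

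Ntf3 (chromosome 6, 126101411 to 126166744, minus strand, 65334 bases), the other neurotrophin gene, was weakly transcribed, with 131 to 258 counts in a library. DMSO with water gave 3.85, 3.03 and 3.33 CPM, bicuculline at 1 h 2.67, 2.79 and 3.23 CPM, and bicuculline at 4 h 3.04, 3.22 and 3.19 CPM. These groups overlapped. Under MM401 the lowest and highest library of any group were 2.38 CPM and 4.06 CPM, both of them in bicuculline at 1 h. Ntf3 was called in no comparison, and without replicate 3 of MM401 with bicuculline at 1 h it was called lower at 4 h than at 1 h under MM401 (-0.57 in place of -0.34, edgeR adjusted p = 0.00208 in place of 0.0953). Its log2 fold change in DMSO was -0.23 at 1 h (95% interval -0.54 to 0.08) and -0.10 at 4 h (-0.41 to 0.20), so a change as large as that of Bdnf or Ntrk2 lay outside both intervals. With plain library sizes in place of TMM it was called lower in DMSO, by -0.42 at 1 h (edgeR adjusted p = 0.0193) and -0.38 at 4 h (0.0292).

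Ntrk2 (chromosome 13, 58806568 to 59133970, plus strand, 327403 bases), the gene of the BDNF receptor TrkB, was also higher with bicuculline. DMSO with water gave 1395, 1298 and 1290 CPM. Bicuculline gave 2108, 2344 and 2569 CPM at 1 h and 2204, 2222 and 2336 CPM at 4 h, all above the water libraries. Unlike for Bdnf, the 1 h and 4 h libraries overlapped. The log2 fold change was 0.82 ± 0.10 at 1 h (1.76-fold; edgeR adjusted p = 4.89e-07) and 0.76 ± 0.10 at 4 h (1.70-fold; 8.16e-07).

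Under MM401 Ntrk2 gave 1208, 1232 and 1298 CPM in water at 1 h and 1324 and 1398 CPM in water at 4 h. Bicuculline at 1 h gave 2792, 2718 and 2166 CPM, and at 4 h 2001, 2045 and 1841 CPM. Every 4 h library lay below every 1 h library, while both groups lay above water. Ntrk2 rose by 1.04 ± 0.10 at 1 h (2.05-fold; edgeR adjusted p = 1.58e-08) and by 0.53 ± 0.11 at 4 h (1.44-fold; 0.000406), and from 1 h to 4 h it fell by 0.38 on the log2 scale (SE 0.09; 0.00316). That fall was no longer called in a fit that kept the shallow library (-0.41, edgeR adjusted p = 0.212). With the gene length correction it was smaller and still called (-0.20).

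Ntrk3 (chromosome 7, 78192113 to 78577838, minus strand, 385726 bases), the gene of TrkC, was called in none of the comparisons. Its libraries gave 949, 719 and 671 CPM in DMSO with water, 698, 806 and 851 CPM in bicuculline at 1 h and 862, 943 and 897 CPM at 4 h. Replicate 1 of DMSO with water stood above the other water libraries, and the 567 genes 300 kb or longer took 33.6% of its counts, against 29.3% and 28.3% in replicates 2 and 3. Without that replicate Ntrk3 was called higher at 4 h of bicuculline in DMSO (0.37 in place of 0.21, edgeR adjusted p = 0.00848 in place of 0.168). Under MM401 the groups ran from 685 to 800.2 CPM in water at 1 h, 827 to 854 in water at 4 h, 713 to 949 in bicuculline at 1 h and 682 to 848 in bicuculline at 4 h. Each bicuculline group overlapped with water of the same time, while the water groups did not overlap each other. Replicate 3 of MM401 with bicuculline at 1 h was its lowest library for Ntrk2 and Ntrk3 and held 30.7% of counts in such long genes, against 33.1% and 33.5% in replicates 1 and 2. Without it Ntrk3 was called higher at 1 h under MM401 (0.36, edgeR adjusted p = 0.0222). With a correction for gene length Ntrk2 was called higher in the 4 comparisons of bicuculline with water, by 0.50 to 0.79. With the same correction Ntrk3 was called lower at 1 h in DMSO (-0.25, edgeR adjusted p = 0.00776, in place of 0.01) and higher at 4 h than at 1 h in DMSO (0.20, 0.0348), so its direction depended on that setting.

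Ngfr (chromosome 11, 95568820 to 95587698, minus strand, 18879 bases) was near the limit of detection, with 9 to 50 counts in a library. It gave 0.534, 0.446 and 0.651 CPM in DMSO with water, 0.246, 0.529 and 0.434 CPM with bicuculline at 1 h, and 0.283, 0.468 and 0.346 CPM at 4 h, with overlap between groups. Under MM401 the water libraries at 1 h gave 0.663, 0.623 and 0.766 CPM, those at 4 h gave 0.711 and 0.413 CPM and the bicuculline libraries at 4 h gave 0.144, 0.281 and 0.332 CPM. Those of bicuculline at 1 h gave 0.371, 0.567 and 0.479 CPM, below water at 1 h without overlap, and this difference was not called (-0.52 ± 0.30, edgeR adjusted p = 0.18). The 4 h bicuculline group lay below the other 3 MM401 groups without overlap and was called lower than water at 4 h, by -1.15 ± 0.37 (edgeR adjusted p = 0.015), and lower than 1 h, by -0.91 ± 0.34 (0.0445). The first call was lost without replicate 1 of MM401 with bicuculline at 4 h (-0.86, adjusted p = 0.0757) and also without the first replicate of MM401 in water at 4 h (-0.73, 0.251). The second was lost without replicate 1 or 2 of MM401 with bicuculline at 4 h (-0.63, adjusted p = 0.206, and -0.99, 0.0666) or without replicate 2 or 3 of MM401 with bicuculline at 1 h (-0.77, 0.159, and -0.94, 0.0729). In DMSO the fold changes were -0.42 (95% interval -1.05 to 0.21) and -0.56 (-1.19 to 0.08) at 1 h and 4 h, and neither interval excluded 0 at this depth. The 4 h value was called lower with plain library sizes (-0.84, edgeR adjusted p = 0.0258).

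Sort1 (chromosome 3, 108284063 to 108361519, plus strand, 77457 bases) changed little. Its group means lay between 103 ± 2.18 CPM in MM401 with water at 1 h and 118 ± 5.48 CPM in DMSO with bicuculline at 4 h, and a library held 4981 to 10015 counts. DMSO with water gave 112, 113 and 109 CPM, bicuculline at 1 h 97.8, 109 and 111 CPM, and bicuculline at 4 h 116, 113 and 124 CPM. The 4 h libraries lay above the 1 h libraries and overlapped with water, and the difference from 1 h of 0.15 ± 0.05 on the log2 scale was called (edgeR adjusted p = 0.0325). The call was lost without replicate 1 or 3 of DMSO with bicuculline at 1 h (0.10, adjusted p = 0.196, and 0.14, 0.0705) or at 4 h (0.16, 0.052, and 0.11, 0.159), and with DESeq2 (0.13, 0.0652). Against water no fold change of Sort1 was called, with 95% intervals of -0.18 to 0.04 at 1 h and -0.03 to 0.19 at 4 h in DMSO. With plain library sizes it was called lower in DMSO at 1 h (-0.26, edgeR adjusted p = 0.000606) and at 4 h (-0.20, 0.00578), and at 1 h so it was with the correction for gene length (-0.17, 0.00481).

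**Figure D2:**
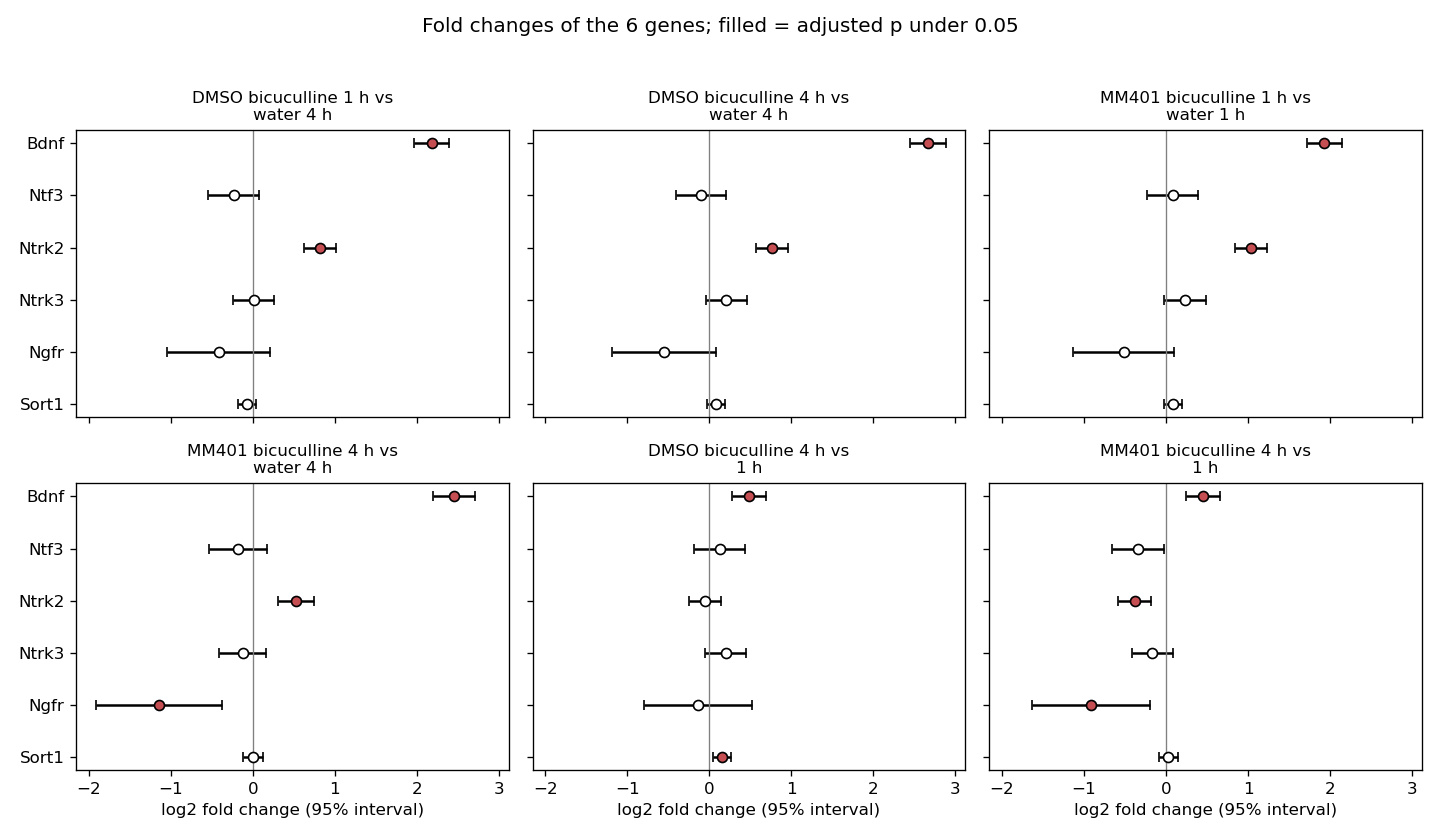
Log2 fold changes (points) of the 6 genes with 95% intervals (bars) in 6 comparisons, each on the same linear axis; filled points had an edgeR adjusted p-value under 0.05. Bdnf lay between 1.93 and 2.66 and Ntrk2 between 0.53 and 1.04 against water, while the intervals of Ntf3, Ntrk3 and Sort1 included 0 in those 4 panels.

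Per kilobase of gene span, Bdnf and Ntrk2 had the highest levels in every group and lay farthest apart in bicuculline. In DMSO with water the levels were 4.21 ± 0.456 CPM per kb for Bdnf, 4.06 ± 0.178 for Ntrk2, 2.02 ± 0.384 for Ntrk3 and 1.44 ± 0.0287 for Sort1 (SD, n = 3). Those of Ntf3 and Ngfr were 0.0521 ± 0.00638 and 0.0288 ± 0.00544 CPM per kb. The Bdnf and Ntrk2 libraries overlapped there, so their order in that group was not settled beyond the spread. Under MM401 they did not overlap in water either, with Bdnf at 5.08 ± 0.701 and Ntrk2 at 3.81 ± 0.143 CPM per kb at 1 h (n = 3), and 4.82 ± 0.567 and 4.16 ± 0.159 at 4 h (n = 2). Each further step down the order was free of overlap in every group. After 4 h of bicuculline in DMSO Bdnf reached 26.7 ± 0.617 CPM per kb and Ntrk2 6.88 ± 0.219. In all 4 bicuculline groups every Bdnf library lay above every Ntrk2 library on this scale. Introns count in these spans, and label was present for 30 min, so the level per length is that of recent transcription over the whole gene. The genes differ in length and Bdnf has starts inside its span, so levels per length are not strictly like for like between genes. How far transcription begun after bicuculline had run along the longer genes by 1 h was not measured.

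**Figure D3:**
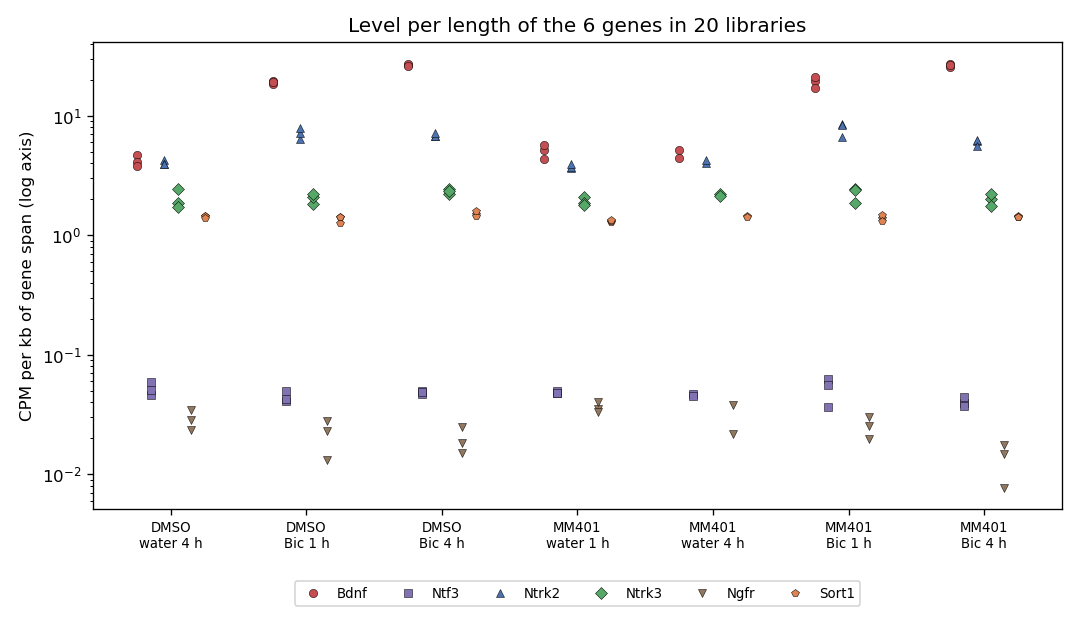
CPM per kb of gene span (log axis) in each of the 20 libraries, by group and gene (symbols). Bdnf and Ntrk2 overlapped in DMSO with water (means 4.21 and 4.06) and lay apart in bicuculline, where the Bdnf group means were 19.1 to 26.7, and the group means of Ntf3 and Ngfr were 0.0521 CPM per kb or less.

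MM401 was compared with DMSO to ask whether the response depends on MLL1. None of the 6 members was called between MM401 and DMSO in water at 4 h, where 0.0826% of genes were called, or in bicuculline at 1 h (0.00590%) or 4 h (0%). At 4 h of bicuculline edgeR called 0 genes, with 1309 at an unadjusted p-value under 0.05, and DESeq2 called 7. The Bdnf difference in bicuculline was 0.02 at 1 h (95% interval -0.19 to 0.22) and -0.02 at 4 h (-0.22 to 0.19) on the log2 scale. In water at 4 h it was 0.19 (-0.04 to 0.42).

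At 4 h of bicuculline some members had values under MM401 that did not overlap those in DMSO. The share of all genes without such overlap is not given here, so the lack of overlap says nothing particular about the members. Every MM401 library lay below every DMSO library for Ntrk2 (-0.20, unadjusted p = 0.0466 and adjusted p = 0.639 from edgeR), Ntrk3 (-0.23, adjusted p = 0.643) and Sort1 (-0.09, 0.672, and 0.02 with plain library sizes). Ntf3 also did not overlap there (-0.25, 0.668). None of these was called. Genes 300 kb or longer took 28.1% to 30.9% of the counts in these MM401 libraries and 31.5% to 32.3% in the DMSO libraries. With the gene length correction the Ntrk2 difference was -0.070 and that of Ntrk3 -0.088.

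The response at 4 h under MM401 minus that in DMSO was tested as an interaction. For Bdnf it was -0.21 ± 0.15 (95% interval -0.52 to 0.10, edgeR adjusted p = 0.507), and for Ntrk2 -0.24 ± 0.14 (-0.53 to 0.06, 0.427). The Ntrk2 value changed sign with the gene length correction (0.0048) and with all 21 libraries (0.064). For Ntrk3 it was -0.33 ± 0.18 (adjusted p = 0.383), and without replicate 1 of DMSO with water it was called at -0.50 (0.049), while with the gene length correction it was -0.089 and not called. Of all genes, 0% were called (2552 at an unadjusted p-value under 0.05, and 19 by DESeq2). That control library weighed on both counts: without it 1551 genes were called for the interaction and 1272 between MM401 and DMSO in water, in place of 14.

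Between 1 h and 4 h of bicuculline, 2 of 6 members were called in DMSO, Bdnf and Sort1, both higher, where 34.2% of genes were called and 19.1% were called higher. Under MM401 3 of 6 were called, Bdnf higher and Ntrk2 and Ngfr lower, where 33.6% of genes were called, 17.5% higher and 16.0% lower. The difference between these courses, MM401 minus DMSO, was tested after the values had been seen. It was -0.03 for Bdnf (95% interval -0.32 to 0.26) and -0.33 ± 0.13 for Ntrk2 (unadjusted p = 0.0226, edgeR adjusted p = 0.7). For Ntrk3 it was -0.36 ± 0.17 (adjusted p = 0.703) and for Ntf3 -0.46 ± 0.21 (0.703). The Ntrk2 and Ntrk3 differences were -0.17 and -0.20 with plain library sizes, and with the gene length correction -0.15 and -0.17. No gene in the table passed (0%, 1195 at an unadjusted p-value under 0.05), so the courses of Ntrk2 were not shown to differ. Water at 4 h against 1 h under MM401 gave 0 of 6 members (0.867% of genes, 0.265% higher and 0.601% lower), with Bdnf at -0.08 (-0.31 to 0.16).

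The genes whose log2 CPM followed each member most closely over the 20 libraries were found by Pearson correlation among 11785 genes of at least 2 CPM (11786 for Ngfr). These values describe libraries that share their groups, and carry no test. The genes were picked for their likeness to the member, so a shared pattern of fold changes follows from that choice. Bdnf was followed by Klf5 (a zinc finger transcription factor) and Adcyap1 (the neuropeptide PACAP), both with r = 0.994, and by Plod2 (a collagen lysyl hydroxylase, 0.989), Fam189a2 (0.988) and Fgf5 (a fibroblast growth factor, 0.988). Like Bdnf, all 5 had a larger fold change at 4 h than at 1 h, for example Adcyap1 with 1.77 and 2.06 in DMSO. Ntrk2 was followed by Mbnl2 (a splicing regulator, r = 0.995), Tnks (tankyrase, 0.992) and Cpeb3 (a translational regulator, 0.991), which like Ntrk2 had their smallest fold change at 4 h under MM401 and their largest at 1 h under MM401. Ntrk3 was followed by Grin2b (an NMDA receptor subunit, 0.958), Ldb2 (0.942) and Atrnl1 (0.937). For the weak or steady members the closest genes were less alike: Sdad1 for Ngfr (0.872), Lca5 for Sort1 (0.843) and Mapk14 for Ntf3 (0.753).

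The tested genes on either side of Bdnf differed in their response. Kif18a, a kinesin gene 333 kb before it on the same strand, rose in the 4 comparisons of bicuculline with water, by 1.36 to 1.75 on the log2 scale (edgeR adjusted p at most 5.96e-09). Lin7c, 163.8 kb after it on the same strand, was not called in DMSO (0.04 and 0.11) and rose by 0.24 and 0.41 under MM401 (adjusted p = 0.0409 and 0.00287). Beside Ntrk2, Agtpbp1 was not called in any of the 4, and Rmi1 fell in DMSO, by -0.35 at 1 h and -0.32 at 4 h (0.0044 and 0.00739). Sort1 has Psma5 at 4.11 kb and Mybphl at 3.39 kb, and of these Psma5 was called higher at 1 h in DMSO (0.17, adjusted p = 0.0289). Beside Ntrk3, Agbl1 was called higher at 1 h in DMSO (0.52, adjusted p = 0.00152) and lower at 4 h under MM401 (-0.35, 0.0464), and E430016F16Rik was called higher at 1 h in DMSO (0.57, 0.0315). Of the neighbours of Ngfr, Phb, 79.3 kb away, was called lower at 1 h and 4 h in DMSO (-0.56 and -0.76, adjusted p = 0.00883 and 0.000731) and at 4 h under MM401 (-0.65, 0.00723). Nxph3, 54.3 kb away and near the limit of detection (mean 0.22 CPM), was called lower at 4 h in DMSO (-1.02, 0.0299) and at 1 h under MM401 (-0.99, 0.0373). Next to Ntf3, Ano2 was called higher at 1 h in DMSO (0.54, 0.00418), and Kcna5 in none of the 4. Ano2 and E430016F16Rik were also weak, with means of 2.59 and 2.02 CPM.

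Other genes of the pathway were counted in 9 lists, which were chosen with earlier results of these data known. Of all genes tested, 20%, 23.7%, 18.1% and 23.0% were called higher and 24.5%, 25.5%, 21.8% and 21.7% lower in the 4 comparisons of bicuculline with water (DMSO 1 h and 4 h, MM401 1 h and 4 h, the order used from here on), and the counts are read against these shares. A change of scaling moved the counts, so those with plain library sizes stand beside them. With plain sizes 10.8%, 10.7%, 7.52% and 16.5% of all genes were called higher and 40.2%, 46.4%, 38.6% and 24.4% lower, and the plain counts are read against these. The shares of a list and of all genes printed with each list are those with TMM. With TMM the median gene changed by -0.04, -0.02, 0.00 and 0.02 in these comparisons. With plain sizes it changed by -0.23, -0.30, -0.21 and -0.06. Of the 132 values of list genes that the rule for named genes took, 6 lost their call with plain sizes and 0 changed sign.

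**Figure D4:**
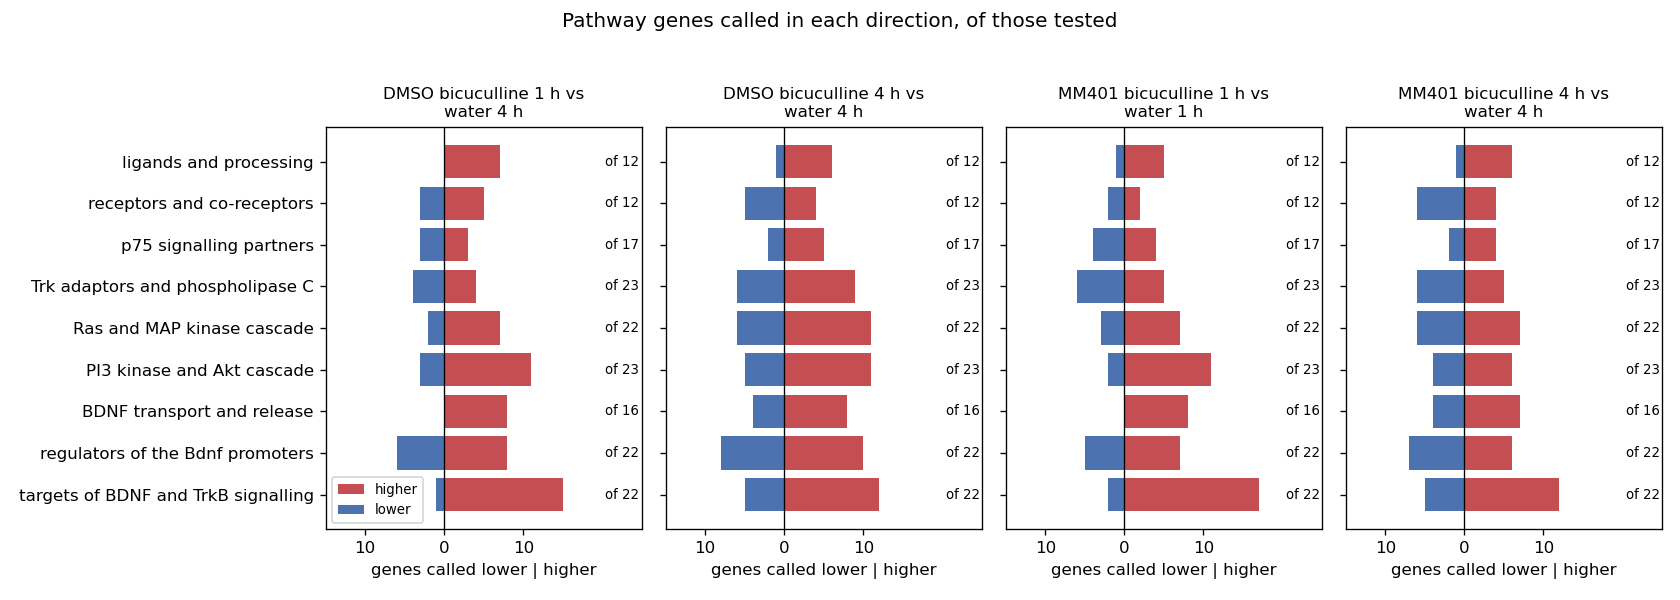
Genes of the 9 pathway lists called higher (red, to the right) and lower (blue, to the left) with TMM scaling in the 4 comparisons of bicuculline with water (horizontal axis, number of genes), with the number tested at the right of each bar. The list of targets of BDNF and TrkB had 12 to 17 of 22 genes called higher (7 to 14 with plain library sizes) and 1 to 5 called lower (3 to 7).

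Among 12 tested genes for ligands and the enzymes that process or inhibit them, 7, 6, 5 and 6 were called higher and 0, 1, 1 and 1 lower (with plain sizes 5, 6, 5 and 5 higher and 2, 3, 3 and 2 lower). That was 41.7% to 58.3% of the list higher and 0% to 8.33% lower, against 18.1% to 23.7% and 21.7% to 25.5% of all genes. Their median log2 fold changes were 0.41, 0.34, 0.16 and 0.14. Pcsk1, the gene of a proprotein convertase that cleaves precursors in the regulated secretory pathway, rose most, from 65.1 ± 8.07 to 336 ± 16.1 CPM at 1 h in DMSO (2.37 ± 0.10, edgeR adjusted p = 1.49e-13). Plat, which encodes tissue plasminogen activator, rose from 27.3 ± 1.24 to 74.2 ± 6.95 CPM at 1 h (1.44 ± 0.08). Pcsk5, another convertase gene, rose from 90.6 ± 10.3 to 288 ± 21.9 CPM at 4 h (1.67 ± 0.09), and Pcsk7 fell by 0.35. Ntf5, Mmp3 and Mmp7 did not pass the filter on low counts.

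Of the receptors and co-receptors 5, 4, 2 and 4 of 12 were called higher and 3, 5, 2 and 6 lower (plain sizes 1, 2, 1 and 4 higher and 5, 7, 7 and 6 lower). That was 16.7% to 41.7% of the list higher and 16.7% to 50% lower, against 18.1% to 23.7% and 21.7% to 25.5% of all genes. The sortilin relatives Sorcs3 and Sorcs1 rose at 4 h in DMSO, Sorcs3 from 507 ± 87.8 to 1211 ± 63.5 CPM (1.26 ± 0.11, edgeR adjusted p = 5.92e-09) and Sorcs1 from 334 ± 28.8 to 677 ± 12.9 CPM (1.02 ± 0.08). Under MM401 their 4 h values were 0.76 and 0.72. Sorl1, a further sortilin relative, fell at 4 h under MM401 (-0.78 ± 0.10, 3.27e-06). Adora2a, an adenosine receptor gene, whose product can transactivate TrkB, fell from 7.96 ± 1.91 to 1.12 ± 0.0537 CPM at 4 h in DMSO (-2.83 ± 0.16). Rtn4r, which encodes the Nogo receptor that can pair with the Ngfr product, fell by 0.93 at 1 h and by 0.46 at 4 h in DMSO.

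Of the signalling partners of the Ngfr product 3, 5, 4 and 4 of 17 were called higher and 3, 2, 4 and 2 lower (plain sizes 0, 3, 1 and 3 higher and 7, 6, 7 and 2 lower). That was 17.6% to 29.4% of the list higher and 11.8% to 23.5% lower, against 18.1% to 23.7% and 21.7% to 25.5% of all genes, so the higher calls were near the background. Ripk2, a kinase that binds the receptor's death domain, rose from 47.0 ± 6.99 to 80.1 ± 2.3 CPM at 4 h in DMSO (0.77 ± 0.08, edgeR adjusted p = 3.3e-08). Psen2, which encodes a presenilin, fell by 0.58 (SE 0.12) at 4 h in DMSO.

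Adaptors of the Trk receptors had 4, 9, 5 and 5 of 23 called higher and 4, 6, 6 and 6 lower (plain sizes 1, 2, 1 and 4 higher and 10, 11, 13 and 7 lower). That was 17.4% to 39.1% of the list higher and 17.4% to 26.1% lower, against 18.1% to 23.7% and 21.7% to 25.5% of all genes. With TMM all but the higher calls at 4 h in DMSO were near the background or below it. With plain sizes 2 of 23 were higher there, against 10.7% of all genes, so that exception depended on the scaling. Grb2, which links receptors to Ras activation, rose from 109 ± 5.76 to 170 ± 15.8 CPM at 4 h in DMSO (0.64 ± 0.07, edgeR adjusted p = 2.49e-07). Gab2, a docking protein gene, rose by 0.48 ± 0.06 at 1 h and 0.62 ± 0.06 at 4 h. Shc2 fell by 0.61 (SE 0.11) at 4 h, and Sh2b3 fell by 0.59 (SE 0.11) at 1 h.

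In the Ras and MAP kinase cascade 7, 11, 7 and 7 of 22 genes were called higher and 2, 6, 3 and 6 lower (plain sizes 5, 7, 5 and 7 higher and 8, 11, 10 and 6 lower). That was 31.8% to 50% of the list higher and 9.09% to 27.3% lower, against 18.1% to 23.7% and 21.7% to 25.5% of all genes. Rap1b, a small GTPase gene, rose from 85.9 ± 1.88 to 147 ± 8.48 CPM at 1 h in DMSO (0.77 ± 0.06, edgeR adjusted p = 1.03e-09). Rps6ka6, which encodes a ribosomal S6 kinase of the RSK family, rose from 20.1 ± 3.43 to 48.8 ± 4.45 CPM at 4 h (1.28 ± 0.12). Mapk7, the gene of the kinase ERK5, fell by 0.43 at 1 h and by 0.56 at 4 h.

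In the PI3 kinase and Akt cascade 11, 11, 11 and 6 of 23 genes were called higher and 3, 5, 2 and 4 lower (plain sizes 8, 3, 8 and 4 higher and 8, 8, 7 and 5 lower). That was 26.1% to 47.8% of the list higher and 8.7% to 21.7% lower, against 18.1% to 23.7% and 21.7% to 25.5% of all genes, and the higher calls at 4 h under MM401 were near the background. Rheb, the GTPase gene whose product activates mTOR, rose most, from 140.5 ± 3.26 to 470.2 ± 49.1 CPM at 1 h in DMSO (1.74 ± 0.08, edgeR adjusted p = 3.07e-13) and less at 4 h (1.37 ± 0.08). Irs2, an insulin receptor substrate gene, rose by 1.18 ± 0.12 at 1 h and 0.81 ± 0.12 at 4 h.

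Genes for transport and release of BDNF had 8, 8, 8 and 7 of 16 called higher and 0, 4, 0 and 4 lower (plain sizes 6, 5, 5 and 5 higher and 3, 6, 2 and 4 lower). That was 43.8% to 50% of the list higher and 0% to 25% lower, against 18.1% to 23.7% and 21.7% to 25.5% of all genes. Syt4, a synaptotagmin found on BDNF vesicles, rose from 68.2 ± 9.02 to 212 ± 13.1 CPM at 1 h and 228 ± 33.4 CPM at 4 h in DMSO (1.64 and 1.74, edgeR adjusted p = 4.97e-10 and 1.47e-10). Scg2, a granin of dense-core vesicles, rose by 1.27 ± 0.29 at 1 h. Cadps2, a priming factor for BDNF release, fell at 4 h, by 0.73 in DMSO and by 1.29 under MM401.

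Of the regulators of the Bdnf promoters 8, 10, 7 and 6 of 22 were called higher and 6, 8, 5 and 7 lower (plain sizes 6, 3, 4 and 5 higher and 10, 10, 10 and 8 lower). That was 27.3% to 45.5% of the list higher and 22.7% to 36.4% lower, against 18.1% to 23.7% and 21.7% to 25.5% of all genes. Npas4, the activity-induced factor whose core letters stand in the Bdnf windows above, went from 26.4 ± 4.26 to 569.6 ± 82.5 CPM at 1 h and 285 ± 56.1 CPM at 4 h in DMSO (4.44 and 3.44, edgeR adjusted p = 1.62e-11 and 1.81e-10). Its level fell back between 1 h and 4 h while that of Bdnf rose further. Whether NPAS4 acted on Bdnf in these cultures was not tested. Srf, the serum response factor gene, rose by 0.80 ± 0.11 at 1 h in DMSO. At 4 h it was called lower in DMSO (-0.42, edgeR adjusted p = 0.00436) and under MM401 (-0.35, 0.036). Crtc1, a CREB coactivator gene, and Camk2a fell at 4 h (-0.53 ± 0.07 and -0.48 ± 0.09). Kmt2a, the gene of the protein that MM401 targets, named here after its values were seen, was called at 1 h in DMSO (0.19, edgeR adjusted p = 0.0327) and not at 4 h (0.10, 0.264), nor under MM401 at 1 h (0.16, 0.0626) or 4 h (-0.10, 0.304).

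Of the targets of BDNF and TrkB signalling 15, 12, 17 and 12 of 22 were called higher and 1, 5, 2 and 5 lower (plain sizes 13, 7, 14 and 10 higher and 3, 7, 3 and 5 lower). That was 54.5% to 77.3% of the list higher and 4.55% to 22.7% lower, against 18.1% to 23.7% and 21.7% to 25.5% of all genes. Many of them are also direct activity-induced genes, so the list does not separate these routes. Their median log2 fold changes were 0.67, 0.40, 0.89 and 0.54, and from 1 h to 4 h of bicuculline 0 of 22 were called higher and 15 lower in DMSO (19.1% and 15.2% of all genes), and 2 higher and 15 lower under MM401 (17.5% and 16.0%). Ccn1, an extracellular matrix signalling gene, rose from 20.3 ± 4.4 to 197 ± 29.0 CPM at 1 h in DMSO (3.28 ± 0.14, edgeR adjusted p = 1.05e-11), and Arc from 10.5 ± 1.53 to 72.3 ± 2.82 CPM (2.78 ± 0.16). Nrn1 (neuritin) rose from 17.1 ± 1.11 to 40.9 ± 2.65 CPM at 4 h (1.26 ± 0.08), and Tac1 by 1.32 ± 0.13. Klf10 fell by 0.87 at 1 h and by 1.51 at 4 h. Egr3 rose by 0.87 at 1 h (edgeR adjusted p = 2.62e-07) and fell by 1.07 at 4 h.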

How the data were processed

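BrU-seq libraries of 21 cultures in 7 groups were used. Per the file headers and the values, the authors deposited 1 table of whole-number counts per gene from featureCounts over whole gene spans, introns included, with mm10 coordinates. The submitters' processing notes name Bowtie2, UMI-tools, featureCounts, DESeq2 and deepTools. Versions and the strand setting are not given in the sources used here. Each column was matched to its sample by its label.

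The counts were tested with edgeR 4.0.16 (R 4.3.3, quasi-likelihood, robust, TMM scaling) on 20 libraries in one fit of all groups, after filterByExpr (minimum count 10, minimum total 15). P-values were Benjamini-Hochberg adjusted over 16959 genes, and those under 0.05 were called. Errors of fold changes are SE, and intervals are at 95%. The procedure was tested on simulated counts. Replicates are labelled as biological, and nothing ties them to animals, so p-values measure the spread between these samples. Same-numbered samples correlated over 0.1 in 10 of 27 cases (median 0.0885), so numbers were not taken to pair samples in general. In 1 comparison, MM401 against DMSO at 4 h of bicuculline, all 3 pairs exceeded 0.1, and there the replicate block gave 0 calls as well.

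The members, the 9 gene lists and the tests were chosen with earlier results of these data known. The difference of courses and the plain library sizes for lists were added after values had been seen. Named genes were the members, up to 2 list genes per direction and comparison with the largest called change, at least 2 CPM and no overlap, the members' tested neighbours, and the 5 or 3 genes most correlated with each. Alternatives were DESeq2 1.42.0, other scalings, no filter, all 21 libraries, a replicate block, a loess correction for gene length, groups compared alone, water at 4 h as reference, and leaving out each library.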

Additional observations from a re-analysis of the deposited data

How the results depend on the processing

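Bdnf and Ntrk2 were called higher in the 4 comparisons of bicuculline with water under each alternative run, with Bdnf between 1.71 and 2.75 on the log2 scale. The fit with the replicate block changed no member call (8035 genes called at 1 h in DMSO in place of 7557), and numbers were not shown to pair the samples. Between MM401 and DMSO and for water over time, the counts of all genes called depended on the tool: with DESeq2 they were 245 in place of 147 for water over time, 159 in place of 14 in water at 4 h and 19 in place of 0 for the interaction. With plain library sizes the share of calls that were higher fell from 44.9% to 21.2% (DMSO at 1 h), 48.1% to 18.8% (DMSO at 4 h), 45.4% to 16.3% (MM401 at 1 h) and 51.5% to 40.3% (MM401 at 4 h). Members called numbered 4, 5 and 1 with plain library sizes (DMSO at 1 h, DMSO at 4 h and the DMSO course), where 8654, 9687 and 5146 of all 16959 genes were called, and 4 at DMSO 1 h with the gene length correction, where 6993 were. They numbered 1 for the DMSO course with DESeq2, DESeq2 size factors, groups compared alone or all 21 libraries (5802, 5704, 5098 of 16280 and 3745 of 16784 genes), and 1 for the MM401 course with all 21 libraries (3646 genes), in place of 5805 and 5691 genes for these courses. When 1 library was left out they numbered 1 to 2 for the DMSO course and 0 to 1 for the interaction. The 1 for the interaction came without replicate 1 of DMSO with water, where 1551 genes were called. Totals of all genes in these fits of the DMSO course are not given here. The cause of these changes was not tested. With all 21 libraries, values that lost the call were Sort1 0.11 for the DMSO course and Ntrk2 -0.41 and Ngfr -0.94 for the MM401 course. With all 21 libraries, values that changed sign were Ntrk3 0.084 and Sort1 0.018 for MM401 at 4 h, Ntrk2 -0.17 and Ntrk3 -0.039 for MM401 water over time, Ntrk2 -0.26 and Ntrk3 -0.12 for MM401 against DMSO in water, Bdnf -0.0010 for MM401 minus DMSO in bicuculline at 1 h and Ntrk2 0.064 for the interaction. With DESeq2, values that lost the call were Sort1 0.13 for the DMSO course. With DESeq2, values that changed sign were Sort1 0.013 for MM401 against DMSO in water. With DESeq2 size factors, values that lost the call were Sort1 0.13 for the DMSO course. With DESeq2 size factors, values that changed sign were Sort1 0.013 for MM401 against DMSO in water. With plain library sizes, values that lost the call were Sort1 0.068 for the DMSO course and Ngfr -0.83 for the MM401 course. With plain library sizes, values that gained a call were Ntf3 -0.42 and Sort1 -0.26 for DMSO at 1 h and Ntf3 -0.38, Ngfr -0.84 and Sort1 -0.20 for DMSO at 4 h. With plain library sizes, values that changed sign were Ntrk3 -0.17 for DMSO at 1 h, Ntrk3 -0.055 and Sort1 -0.20 for DMSO at 4 h, Ntf3 -0.14 and Sort1 -0.13 for MM401 at 1 h, Ntrk2 -0.050 and Ngfr -0.043 for MM401 against DMSO in water, Bdnf -0.040 and Sort1 -0.016 for MM401 minus DMSO in bicuculline at 1 h, Bdnf 0.10 and Sort1 0.024 for MM401 minus DMSO in bicuculline at 4 h, Ntf3 0.13 and Sort1 0.12 for the interaction and Bdnf 0.14 and Sort1 0.040 for the difference of courses. With no filter, values that lost the call were Ngfr -0.91 for the MM401 course. With groups compared alone, values that lost the call were Sort1 0.12 for the DMSO course. With groups compared alone, values that changed sign were Bdnf 0.0089 for MM401 minus DMSO in bicuculline at 4 h. With the gene length correction, values that lost the call were Sort1 0.11 for the DMSO course. With the gene length correction, values that gained a call were Ntrk3 -0.25 and Sort1 -0.17 for DMSO at 1 h and Ntrk3 0.20 for the DMSO course. With the gene length correction, values that changed sign were Ntrk3 -0.25 for DMSO at 1 h, Ntrk3 -0.052 and Sort1 -0.060 for DMSO at 4 h, Ntrk3 -0.031 for MM401 at 1 h, Ntrk3 0.030 for the MM401 course, Ntrk2 -0.075 for MM401 against DMSO in water, Bdnf 0.013 for MM401 minus DMSO in bicuculline at 4 h, Ntrk2 0.0048 and Sort1 0.011 for the interaction and Bdnf 0.0074 for the difference of courses. With water at 4 h as the reference, values that changed sign were Sort1 -0.029 for MM401 at 1 h. When 1 library at a time was left out, Sort1 ran from 0.10 to 0.18 for the DMSO course, -0.019 to 0.060 for MM401 minus DMSO in bicuculline at 1 h, -0.026 to 0.013 for MM401 against DMSO in water, -0.038 to 0.065 for the MM401 course and -0.040 to 0.0039 for MM401 at 4 h. When 1 library at a time was left out, Ngfr ran from -0.030 to 0.52 for MM401 minus DMSO in bicuculline at 1 h, -0.40 to 0.15 for the DMSO course, -0.39 to 0.40 for MM401 against DMSO in water, -1.19 to -0.63 for the MM401 course, -1.52 to -0.73 for MM401 at 4 h and -0.73 to 0.067 for MM401 water over time. When 1 library at a time was left out, Ntrk3 ran from -0.071 to 0.18 for DMSO at 1 h, 0.083 to 0.37 for DMSO at 4 h, -0.50 to -0.24 for the interaction and 0.16 to 0.36 for MM401 at 1 h. When 1 library at a time was left out, Bdnf ran from -0.061 to 0.084 for MM401 minus DMSO in bicuculline at 1 h, -0.035 to 0.010 for MM401 minus DMSO in bicuculline at 4 h and -0.19 to 0.040 for MM401 water over time. When 1 library at a time was left out, Ntf3 ran from -0.068 to 0.30 for MM401 at 1 h and -0.57 to -0.19 for the MM401 course.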
